A study of Mus musculus with 24 samples.

Results

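Lysosomes are the acidic compartments in which macrophages degrade what they ingest and recycle their own membranes and proteins. Here 48 genes of this compartment were followed by symbol: 16 encode subunits or accessory proteins of the V-ATPase, the proton pump that acidifies it, and 32 encode its hydrolases, lipid-handling proteins, membrane proteins, positioning GTPases, calcium channel and the MiT/TFE transcription factors. The genes were taken by name from a list made for their function, and all 48 were present in both expression tables, among 22996 genes in the table of primary macrophages and 54380 genes in that of a macrophage cell line.

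The study measured polyadenylated RNA in 24 libraries, 3 in each of 8 groups, to compare loss of the transcriptional corepressors Ctbp1 and Ctbp2 and exposure to bacterial lipopolysaccharide (LPS). Bone marrow-derived macrophages (BMDMs) came from male C57BL6/N mice between 6 and 12 weeks of age and were grown out of marrow in medium with L929 supernatant, a source of the macrophage growth factor M-CSF. They received Ctbp2 siRNA, Ctbp1 siRNA or control siRNA, each with LPS at 100 ng/ml for 4 h or with the vehicle PBS, which gave 6 groups and 18 libraries. J774.1 cells, a macrophage line from a female BALB/c mouse, were either Ctbp1/2 double-knockout or wildtype, and both groups had received LPS at 100 ng/ml for 4 h, so the 6 libraries of this line hold no vehicle group. The labels do not say whether the double-knockout line is 1 clone, and they call the replicates biological triplicates without saying that they came from separate animals or cultures, so the p-values measure the spread between these libraries, which may be technical.

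The V-ATPase is built from a membrane-embedded V0 sector, through which protons pass, and a cytosolic V1 sector, which hydrolyses ATP. Cathepsins are lysosomal proteases, and most reach the lysosome as proenzymes that mature at low pH. TFEB, TFE3 and MITF are related basic helix-loop-helix transcription factors that bind E-box sequences in the promoters of many lysosomal and autophagy genes, and in macrophages LPS and phagocytosis are known to act on their activity mostly through phosphorylation and transport into the nucleus, which RNA levels do not show.

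Expression was given as TPM (a length-corrected share of all transcripts), so the read depth behind a value is unknown and each library sums to nearly the same total. The lowest Pearson correlation between libraries of 1 group was 0.985 among BMDM libraries and 0.989 among J774.1 libraries. The siRNA targets were lower in the cells given their siRNA. Ctbp1 averaged 50.8 ± 4.46 TPM with Ctbp1 siRNA and LPS, against 123 ± 7.33 TPM with control siRNA and LPS, and Ctbp2 averaged 12.1 ± 1.7 TPM with Ctbp2 siRNA and LPS, against 38.2 ± 1.82 TPM with control siRNA and LPS (SD, n = 3 each). In J774.1 cells Ctbp1 averaged 19.9 ± 3.3 TPM in double-knockout cells and 161 ± 3.81 TPM in wildtype cells, while Ctbp2 averaged 63.1 ± 1.38 TPM in double-knockout and 78.2 ± 3.52 TPM in wildtype cells (SD, n = 3 each). Most of the Ctbp2 RNA thus remained in the cells labelled double-knockout, although the difference was called (log2 fold change -0.31, limma adjusted p = 0.000723), so the RNA checks that label for Ctbp1 and not for loss of Ctbp2. The 9 macrophage markers summed to between 12884 and 16754 TPM in the BMDM libraries and to between 2915 and 3515 TPM in J774.1, where Mertk did not reach 1 TPM in any library. Lists of dendritic cell, lymphocyte, stromal and mast cell markers stayed at or under 7.6 TPM in sum in every library, and 9 neutrophil markers summed to between 62.5 and 171 TPM in BMDMs, led by S100a9. One library, control siRNA with LPS numbered 4, stood apart in several comparisons, and those counts are also given without it. Counts with a library left out are given without the share of all tested genes called in the same refit.

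In unstimulated control BMDMs the proteases and lipid activators dominated. The aspartic protease gene Ctsd averaged 9171 TPM, the cysteine protease gene Ctsb 8891 TPM, the sphingolipid activator precursor gene Psap 7976 TPM and the cysteine protease gene Ctss 4498 TPM. At the other end Mitf averaged 71.9 TPM, Scarb2 67.1 TPM, Tfeb 63.8 TPM and the osteoclast protease gene Ctsk 13.7 TPM. The 48 genes together held 4.14 ± 0.0949% of all TPM with Ctbp2 siRNA and LPS, 4.26 ± 0.0803% with Ctbp1 siRNA and LPS and 4.14 ± 0.246% with control siRNA and LPS (SD, n = 3 each). With vehicle the same share was 5.73 ± 0.0756% with Ctbp2 siRNA, 5.75 ± 0.0835% with Ctbp1 siRNA and 5.59 ± 0.0263% with control siRNA (SD, n = 3 each). Every LPS library lay below every vehicle library in this share. In bulk RNA a lower share can come from fewer cells of a type or from less of an RNA in each cell. It can also come from more of other RNAs in the fixed sum, and the share alone does not tell these apart. Marker levels moved with LPS as well: in control cells the macrophage list summed to 16104 to 16754 TPM with LPS and 14254 to 14813 TPM with vehicle, and the 7 stromal markers to 4.11 to 7.6 TPM with LPS and 0.0633 to 0.11 TPM with vehicle. Of these 7 markers 6 stayed under 1 TPM in every BMDM library. The stromal sum was mostly the gene Pdgfrb, at a mean of 3.17 TPM over the BMDM libraries. Ctbp1 siRNA cells with vehicle had macrophage sums of 12884 to 13473 TPM, below those of control cells with vehicle. Cd68 of the macrophage list is itself among the 48 genes. In control cells the 8 other macrophage markers, led by Lyz2, summed to 14340 to 15230 TPM with LPS and 11950 to 12560 TPM with vehicle. The part of these in the results was not tested.

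**Figure D1:**
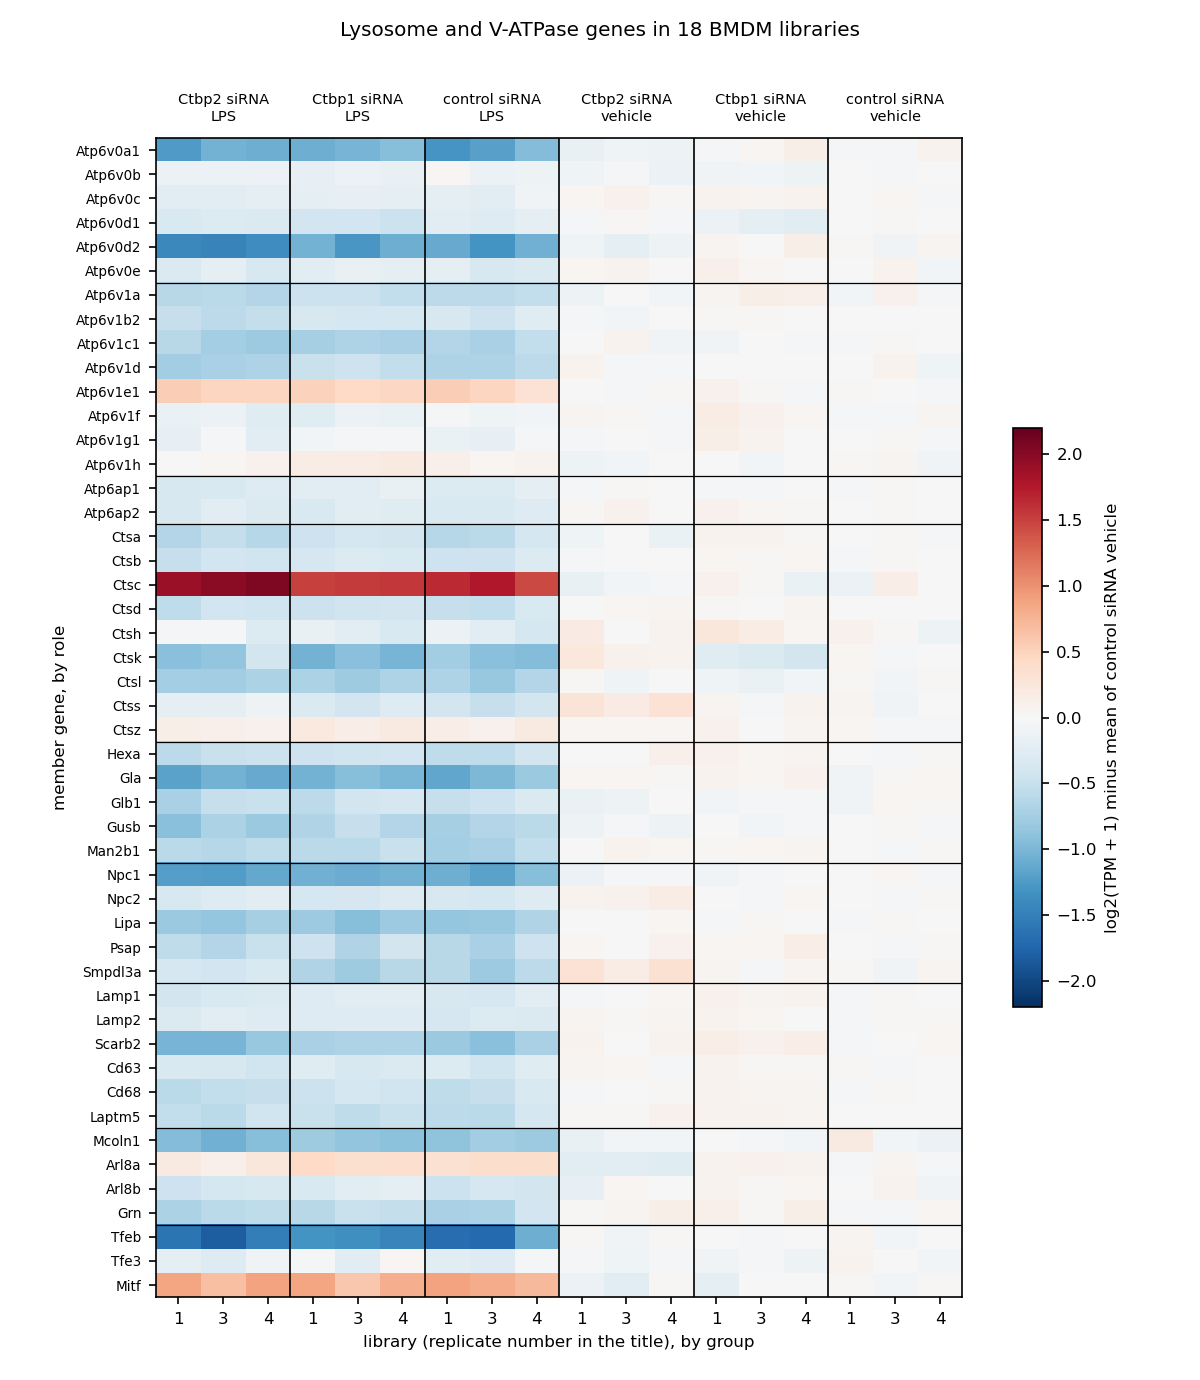
Each row is 1 of the 48 genes, ordered by role, and each column 1 of the 18 BMDM libraries, ordered Ctbp2, Ctbp1 and control siRNA with LPS and then the same with vehicle; colour is log2(TPM + 1) minus the mean of the 3 control siRNA vehicle libraries. The 9 LPS columns are mostly blue, with Ctsc, Mitf, Atp6v1e1 and Arl8a in red, while the siRNA groups within each treatment look alike at this scale.

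LPS for 4 h lowered most of these genes as a share of the RNA. In control siRNA BMDMs 40 of the 48 genes were lower and 5 higher with LPS than with vehicle (limma, Benjamini-Hochberg adjusted p under 0.05 over the 7918 genes that averaged 10 TPM or more), beside 53.1% of all tested genes lower and 23.3% higher. The median log2 fold change was -0.43 over the 48 genes and -0.21 over all tested genes. The groups did not overlap for 39 genes that were lower and 5 that were higher, a separation that 53.5% and 24.2% of all tested genes showed in those directions. With Ctbp1 siRNA 39 genes were lower and 6 higher, beside 50.9% and 24.5% of all tested genes, with a median of -0.40. With Ctbp2 siRNA 40 genes were lower and 5 higher, beside 55.2% and 23.5% of all tested genes, with a median of -0.50. Without the control LPS library numbered 4, the control comparison had 39 genes lower and 5 higher. Ctsk, counted as lower with each siRNA, passed the minimum of 10 TPM only through the vehicle groups.

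TPM values are shares of a fixed sum, and these counts depended on the scale. After median-of-ratios scaling, which sets the typical ratio between libraries to 1, the median of all tested genes moved to 0.11 and that of the lysosomal genes to -0.10, and 23 genes were lower and 11 higher of 47 tested, beside 27.2% of all tested genes lower and 45.3% higher. In the authors' deposited table of this comparison 24 of 48 genes were lower and 11 higher, beside 24.3% and 25.8% of all genes with an adjusted p, so the count of higher genes there was near the background. The 23 genes that were lower on both scales in control cells were also lower on both scales in cells with Ctbp1 siRNA and in cells with Ctbp2 siRNA, each arm having its own vehicle libraries. Arl8a, Atp6v1e1, Ctsc and Mitf were higher in all 3 arms on both scales. For 13 genes lower in TPM no call was left after scaling, and Atp6v0c, Atp6v0d1 and Atp6v1g1 were called higher instead.

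**Figure D2:**
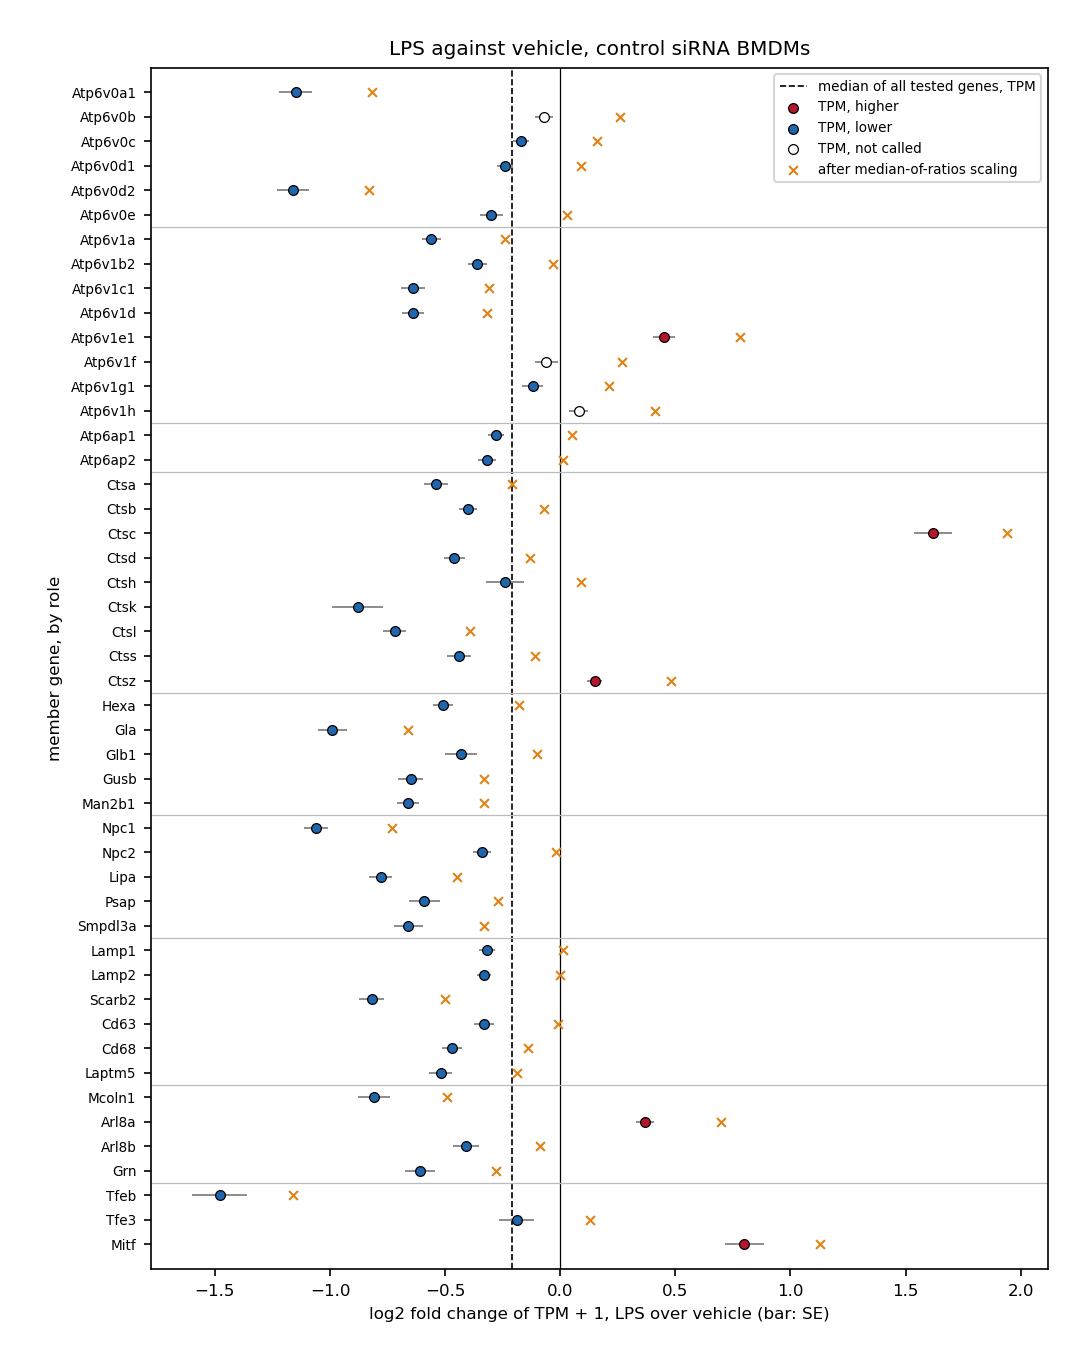
Points give the log2 fold change of TPM + 1, LPS over vehicle in control siRNA BMDMs, for each of the 48 genes by role, with bars of 1 SE; filled points passed the limma test and crosses give the value after median-of-ratios scaling. The dashed line is the median of all tested genes, -0.21; Tfeb at -1.48 and Ctsc at 1.62 are the ends of the range.

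The 3 transcription factor genes moved apart. Tfeb read 19.3, 18.9 and 29.8 TPM in the LPS libraries of control siRNA cells, against 66.4, 61.5 and 63.7 TPM in the vehicle libraries. No LPS library reached the lowest vehicle library, and the LPS library numbered 4 was the highest of its group. Its log2 fold change was -1.48 ± 0.12 (SE; limma adjusted p = 6.44e-09), and -1.16 after scaling. With LPS Tfeb read 20.4, 17.4 and 21.7 TPM in Ctbp2 siRNA cells and 25.1, 24.6 and 22.7 TPM in Ctbp1 siRNA cells, and both groups overlapped with the control cells given LPS. Mitf, the family member known for its role in pigment cells, went the other way. It read 133, 127 and 118 TPM with LPS and 73.1, 69.1 and 73.4 TPM with vehicle, with every LPS library above every vehicle library (log2 fold change 0.80 ± 0.084, limma adjusted p = 1.69e-07; 1.13 after scaling). Tfe3 read 119, 115 and 137 TPM with LPS and 148, 140 and 135 TPM with vehicle. These groups overlapped, and the change of -0.19 ± 0.075 (limma adjusted p = 0.0265) turned to 0.13 after scaling, so no direction is given for Tfe3. Its call was also lost without the vehicle library numbered 1, the LPS library numbered 1 or the LPS library numbered 3 (limma adjusted p = 0.101, 0.083 and 0.125).

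**Figure D3:**
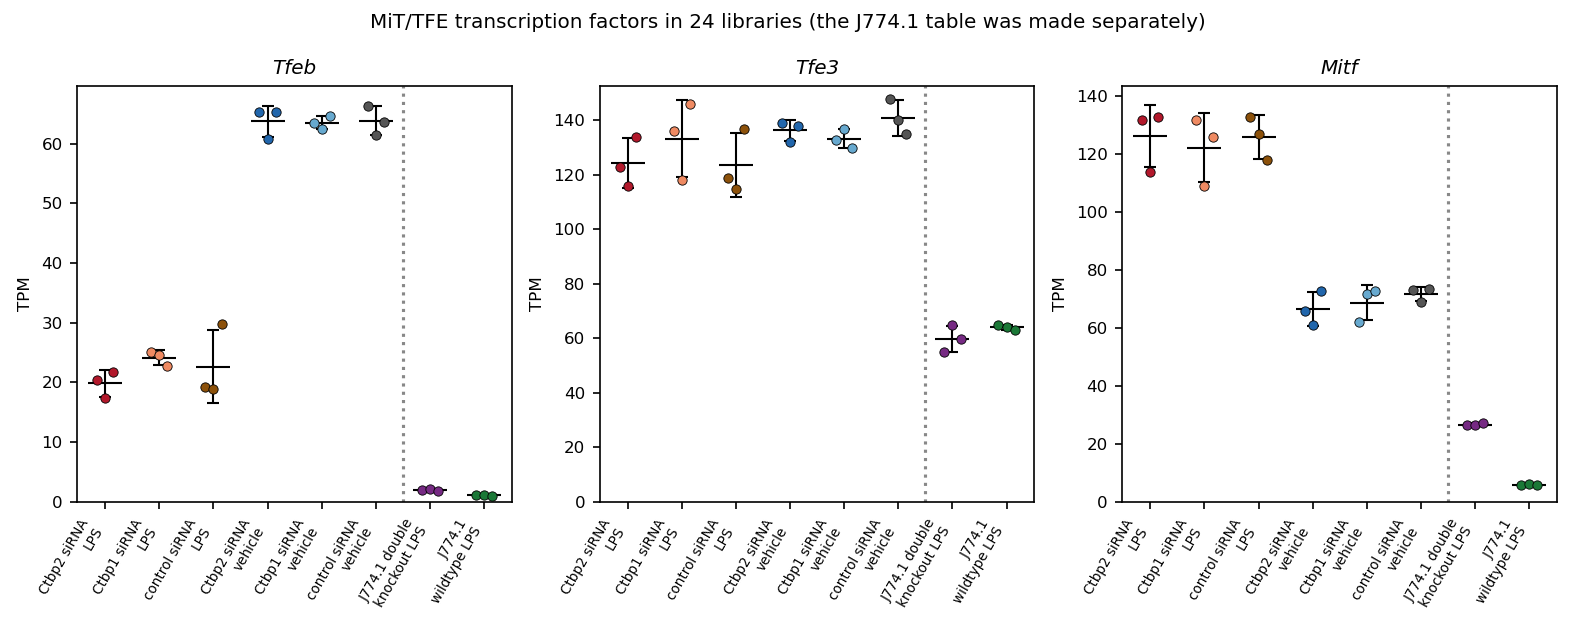
TPM of Tfeb, Tfe3 and Mitf in all 24 libraries, with points for libraries and bars for the mean and SD of 3; the dotted line separates the J774.1 table, which was made separately. Tfeb sits between 17.4 and 29.8 TPM in the 9 LPS libraries of BMDMs and at 60.8 TPM or more in the 9 vehicle libraries, while Mitf sits at 109 TPM or more with LPS and at 73.4 TPM or less with vehicle.

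E-box sequences were looked for in the promoters, since the 3 factors are known to bind them. RefSeq promoter windows (build GRCm38.p6, 250 bases before to 50 after the start) were matched for 38 of the 48 genes. The letters CACGTG, read on both strands, stood in 11 of the 38 genes (28.9%), in 12.9% of 6272 genes tested in BMDMs and in 8.09% of all 27025 genes with a window. The longer TCACGTGA, every match of which also contains CACGTG, stood in 7 of the 38 genes (18.4%), in 2.69% of the tested genes and in 1.12% of all. The same letters with G before and C after them stood in none of the 38, in 1.02% of the tested genes and in 0.37% of all. A match describes the letters only. The 7 genes with TCACGTGA are shown because they share that stretch while encoding different parts of the lysosome: pump subunits (Atp6v0d1, Atp6v0e, Atp6v1a), hydrolases (Ctsa, Ctsd, Gla) and the calcium channel gene Mcoln1. Capitals mark the motif, and each stretch is written 5′ to 3′ on the strand of its gene, with Ctsa and Gla holding a pair of matches each.
Atp6v0d1, chr8:105566050-105566079, minus strand: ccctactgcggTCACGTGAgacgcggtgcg
Atp6v0e, chr17:26676387-26676416, plus strand: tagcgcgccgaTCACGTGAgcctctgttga
Atp6v1a, chr16:44139364-44139411, minus strand: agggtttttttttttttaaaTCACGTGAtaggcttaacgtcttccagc
Ctsa, chr2:164833740-164833772, plus strand: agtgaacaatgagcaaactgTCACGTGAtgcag
Ctsa, chr2:164833766-164833795, plus strand: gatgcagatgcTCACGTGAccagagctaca
Ctsd, chr7:142387899-142387946, minus strand: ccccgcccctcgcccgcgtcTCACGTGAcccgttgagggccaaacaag
Gla, chrX:134601206-134601253, minus strand: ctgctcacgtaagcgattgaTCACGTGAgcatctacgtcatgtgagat
Gla, chrX:134601173-134601220, minus strand: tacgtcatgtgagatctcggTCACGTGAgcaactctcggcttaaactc
Mcoln1, chr8:3500453-3500500, plus strand: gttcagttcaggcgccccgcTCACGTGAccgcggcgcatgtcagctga

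Genes with and without the shorter motif had similar values under LPS. The 11 genes with CACGTG had a median log2 fold change of -0.46 in control cells, between -0.99 and -0.07, and 10 of them were called lower. The 27 without it had a median of -0.44, between -1.48 and 1.62, with 21 called lower and 5 called higher. No test was made of this difference.

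Among the V-ATPase subunits, 5 of 6 V0 genes, 5 of 8 V1 genes and both accessory genes were lower in TPM, and 1 V1 gene was higher. After scaling the V0 genes gave 2 lower and 3 higher, the V1 genes 3 lower and 4 higher and the accessory genes Atp6ap1 and Atp6ap2 none, so the pump did not move as 1 unit on either scale. The 2 V0 genes lower on both scales were Atp6v0a1, which encodes an isoform of the proton-conducting a subunit, and Atp6v0d2, an isoform of the d subunit known from osteoclasts and macrophages. Atp6v0a1 read 208, 223 and 264 TPM with LPS and 500, 496 and 539 TPM with vehicle, with a wide gap between the groups (log2 fold change -1.15 ± 0.073, limma adjusted p = 2.57e-10; -0.82 after scaling). Atp6v0d2 read 194, 167 and 201 TPM with LPS and 426, 397 and 434 TPM with vehicle, again with no overlap (log2 fold change -1.16 ± 0.07, limma adjusted p = 1.19e-10; -0.83 after scaling). Its ubiquitous counterpart Atp6v0d1 read 175, 171 and 181 TPM with LPS and 206, 210 and 206 TPM with vehicle. That difference of -0.24 ± 0.036 did not overlap in TPM but turned to 0.09 (limma adjusted p = 0.0389) after scaling, so its direction rests on the scale. The ratio of Atp6v0d2 to Atp6v0d1, which scaling cannot alter, was 1.11, 0.975 and 1.11 with LPS and 2.07, 1.89 and 2.11 with vehicle in control cells. Ctbp2 siRNA cells with LPS had ratios of 0.953, 0.892 and 0.965, and Ctbp1 siRNA cells with LPS 1.31, 1.11 and 1.34. Every LPS library was thus below every vehicle library of control cells in that ratio. Atp6v0d2 is itself the main gene of the osteoclast marker list, whose sum was 322 to 367 TPM in LPS and 508 to 545 TPM in vehicle libraries of control cells. The sum of the 7 markers of that list outside the 48 genes went the other way. It was 148.4 to 165.2 TPM with LPS, led by Mmp9, and 93.8 to 97.54 TPM with vehicle, led by Dcstamp. Of the list 2 markers stayed under 1 TPM in every BMDM library, so the sum does not give the direction of each marker.

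In the V1 sector Atp6v1e1, the gene of a stator subunit, was higher with LPS on both scales. It read 401, 382 and 340 TPM with LPS and 277, 274 and 270 TPM with vehicle, with no overlap (log2 fold change 0.45 ± 0.049, limma adjusted p = 3.23e-07; 0.78 after scaling). Atp6v1a, which encodes the catalytic subunit, and the genes of the C1 and D subunits were lower on both scales, with log2 fold changes of -0.24 to -0.32 after scaling. Atp6v1f, Atp6v1h and the V0 gene Atp6v0b were not called in TPM, with log2 fold changes of -0.06, 0.08 and -0.07, and were higher after scaling.

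Of the 9 cathepsin genes 7 were lower and 2 higher in TPM, while after scaling 4 of 8 were lower (Ctsa, Ctsb, Ctsd and Ctsl) and 2 higher. Ctsc stood apart from the rest. It encodes dipeptidyl peptidase I, which activates serine proteases of immune granules, and read 259, 281 and 226 TPM with LPS against 74.7, 91.6 and 81.3 TPM with vehicle. The lowest LPS library was far above the highest vehicle library (log2 fold change 1.62 ± 0.082, limma adjusted p = 1.03e-11; 1.94 after scaling). Ctsz, a carboxypeptidase gene, rose by 0.15 ± 0.032 (limma adjusted p = 0.000469; 0.48 after scaling). Ctss, the protease gene that trims the invariant chain for antigen presentation, read 3412, 3147 and 3397 TPM with LPS and 4694, 4277 and 4523 TPM with vehicle. Its groups did not overlap in TPM, but the change was -0.11 after scaling (limma adjusted p = 0.068). Ctsk fell by 0.88 ± 0.11 in TPM (limma adjusted p = 1.66e-06) at the lowest level of all 48 genes, and it was not tested after scaling. In control cells it averaged 13.7 TPM with vehicle and 6.98 TPM with LPS. It passed the minimum of 10 TPM only through the vehicle groups, so the minimum favoured a fall for this gene.

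All 5 glycosidase genes and all 5 lipid-handling genes were lower in TPM, and 4 of each remained called lower after scaling. Gla, whose product alpha-galactosidase A is lacking in Fabry disease, read 59.3, 66 and 74.8 TPM with LPS and 126, 134 and 137 TPM with vehicle. The groups were far apart (log2 fold change -0.99 ± 0.063, limma adjusted p = 2.57e-10; -0.66 after scaling). Npc1, the membrane protein gene for cholesterol export from lysosomes, read 61.3, 57.1 and 67.3 TPM with LPS and 129, 134 and 127 TPM with vehicle. No LPS library came near the vehicle libraries (log2 fold change -1.06 ± 0.052, limma adjusted p = 7.65e-12; -0.73 after scaling). Its luminal partner Npc2 changed by -0.02 after scaling (limma adjusted p = 0.671) although it was called lower in TPM. The acid lipase gene Lipa was lower by -0.78 ± 0.05 in TPM and -0.45 after scaling.

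The 6 membrane protein genes were all lower in TPM, and Scarb2, Cd68 and Laptm5 also after scaling. Scarb2, the receptor gene that carries beta-glucocerebrosidase to lysosomes, had the largest change of them at -0.82 ± 0.056, or -0.50 after scaling. Lamp1, Lamp2 and Cd63, the major glycoprotein and tetraspanin genes of the lysosomal membrane, lay between -0.01 and 0.01 after scaling, with no call. Mcoln1, the gene of the lysosomal calcium channel, fell by 0.81 ± 0.069 in TPM and by 0.49 after scaling, and Grn, the progranulin gene, was lower on both scales. The pair of Arl8 GTPases, which link lysosomes to kinesin for outward transport, did not move together. Arl8a read 241, 250 and 251 TPM with LPS and 187, 198 and 188 TPM with vehicle, with every LPS library higher (log2 fold change 0.37 ± 0.039, limma adjusted p = 1.53e-07; 0.70 after scaling). Arl8b read 91.9, 99.6 and 97.1 TPM with LPS and 128, 136 and 122 TPM with vehicle, with every LPS library lower in TPM (log2 fold change -0.41 ± 0.057), and after scaling its change of -0.09 was not called.

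Few of these genes were called with Ctbp1 or Ctbp2 siRNA, and few of all tested genes were. With Ctbp1 siRNA 1 gene of 48 was called in each treatment, beside 0.215% of all tested genes with vehicle and 0.152% with LPS, and it was Atp6v0d1 both times. Atp6v0d1 read 189, 181 and 175 TPM with Ctbp1 siRNA and vehicle, against 206, 210 and 206 TPM with control siRNA and vehicle (log2 fold change -0.19 ± 0.036, limma adjusted p = 0.0422). With LPS it read 154, 155 and 149 TPM with Ctbp1 siRNA and 175, 171 and 181 TPM with control siRNA (log2 fold change -0.20 ± 0.036, limma adjusted p = 0.0359). The groups did not overlap in either treatment. Such separation was common without a call. With vehicle it held for 11 genes higher and 4 lower of 48, and with LPS for 5 higher and 2 lower. The share of all tested genes so separated is not given for the siRNA comparisons, so separation only describes the values there. Both values lie close to the threshold: the call was lost when 1 of the 18 libraries was left out in 14 of 18 cases with vehicle and in 12 of 18 with LPS, and after scaling the adjusted p was 0.0625 with vehicle and 0.0236 with LPS. Without the control LPS library numbered 4, the LPS comparison had 3 genes higher and 1 lower, with no share of all tested genes given for that refit. The authors' deposited table also had Atp6v0d1 as its 1 lower gene with vehicle, beside 0.609% of all genes, and with LPS, beside 0.156%. It had 3 higher genes with vehicle, namely Atp6v0c, Scarb2 and Lamp1, beside 1.11% of all genes.

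With Ctbp2 siRNA 3 genes were called with vehicle, beside 1.02% of all tested genes, and 5 with LPS, beside 3.17%. After scaling 3 were higher and 1 lower of 47 with vehicle, beside 1.03% and 0.28% of all tested genes. The authors' deposited table had 4 higher and 1 lower with vehicle, beside 2.03% and 0.817% of all genes. Npc2, not called in TPM, was called higher in both treatments after scaling and in that deposited table. Ctss read 3884, 3936 and 4178 TPM with Ctbp2 siRNA and LPS, against 3412, 3147 and 3397 TPM with control siRNA and LPS, a log2 fold change of 0.27 ± 0.051 (limma adjusted p = 0.0097). With vehicle it read 5500, 5124 and 5571 TPM with Ctbp2 siRNA and 4694, 4277 and 4523 TPM with control siRNA, a change of 0.26 ± 0.051 (limma adjusted p = 0.0233). Every Ctbp2 siRNA library was higher than every control library of its treatment. Groups were separate at more genes than were called. With vehicle this held for 6 genes higher and 5 lower of 48, and with LPS for 3 higher and 7 lower. As for Ctbp1 siRNA, the share of all tested genes so separated is not given, so these counts only describe the values. Smpdl3a, the gene of a secreted phosphodiesterase related to acid sphingomyelinase, read 167, 161 and 172 TPM with Ctbp2 siRNA and LPS, against 142, 124 and 145 TPM with control siRNA and LPS. With vehicle it read 270, 244 and 275 TPM with Ctbp2 siRNA and 220, 205 and 226 TPM with control siRNA. Both groups were again separate, with a change of 0.28 ± 0.063 in each treatment (limma adjusted p = 0.0221 with LPS and 0.0456 with vehicle). The vehicle call of Smpdl3a was lost in 13 of 18 cases when 1 library was left out, and its LPS call without the Ctbp2 siRNA library numbered 1 or 4 or the control library numbered 3, with a highest adjusted p of 0.0762. The Ctss call held in all 18 cases with LPS, but with vehicle it was lost without the Ctbp2 siRNA library numbered 1 or 4 or the control library numbered 3 or 4, with a highest adjusted p of 0.109.

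Arl8a was lower with Ctbp2 siRNA in TPM. It read 163, 160 and 159 TPM with Ctbp2 siRNA and vehicle, against 187, 198 and 188 TPM with control siRNA and vehicle, with a wide gap (log2 fold change -0.25 ± 0.039, limma adjusted p = 0.00663; -0.20 after scaling, adjusted p = 0.0292). This call held in all 18 cases with 1 library left out. With LPS it read 218, 207 and 228 TPM with Ctbp2 siRNA and 241, 250 and 251 TPM with control siRNA. The change of -0.18 ± 0.039 (limma adjusted p = 0.0176) became -0.11 after scaling (adjusted p = 0.2), and its call was lost without the Ctbp2 siRNA library numbered 1 or 3 (adjusted p = 0.0553 and 0.07). Atp6v1b2, the gene of the regulatory B subunit, read 454, 433 and 445 TPM with Ctbp2 siRNA and LPS, against 505, 466 and 537 TPM with control siRNA and LPS. The groups did not overlap, but the change of -0.18 ± 0.04 (limma adjusted p = 0.0229) was not called after scaling (-0.10, adjusted p = 0.161). Ctsc read 311, 329 and 343 TPM with Ctbp2 siRNA and LPS, against 259, 281 and 226 TPM with control siRNA and LPS, a change of 0.36 ± 0.082 (limma adjusted p = 0.0229). All 3 Ctbp2 siRNA libraries were above all 3 control libraries. With vehicle Ctsc read 73, 79.3 and 80.2 TPM with Ctbp2 siRNA, against 74.7, 91.6 and 81.3 TPM with control siRNA, and these groups overlapped. The calls of Ctsc and Atp6v1b2 were lost without the control LPS library numbered 4 (adjusted p = 0.0972 and 0.0741), or without the Ctbp2 siRNA LPS library numbered 3 or 4, and that of Atp6v1b2 also without the control LPS library numbered 1. Without the control LPS library numbered 4, 2 genes were higher and 1 lower. After scaling the LPS comparison had 5 genes higher and none lower, beside 2.1% and 0.826% of all tested genes, and the authors' deposited table had 6 higher and none lower, beside 2.73% and 1.5%. All 5 calls with LPS were lost when only the compared groups entered the fit, Ctss included (limma adjusted p = 0.117).

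**Figure D4:**
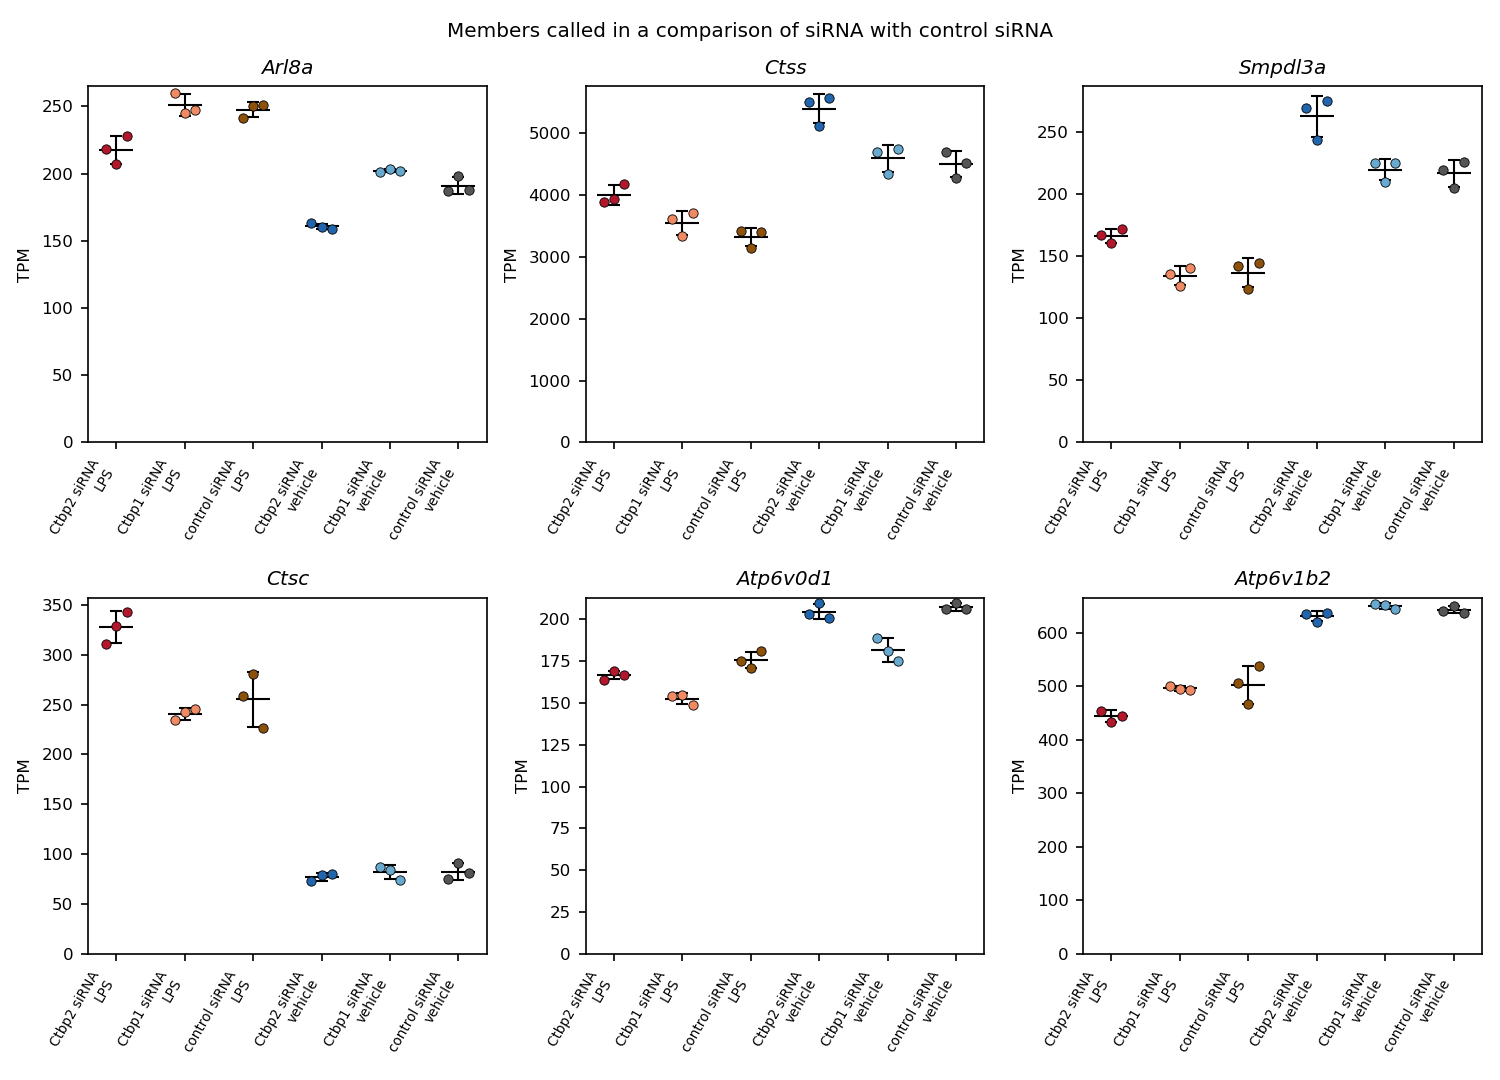
TPM of the 6 genes called in a comparison of Ctbp2 or Ctbp1 siRNA with control siRNA, with 1 point for each of 3 libraries in each BMDM group and bars for the mean and SD. Ctss and Smpdl3a are higher and Arl8a lower with Ctbp2 siRNA in both treatments, Ctsc is higher with Ctbp2 siRNA with LPS, and Atp6v0d1 is lower with Ctbp1 siRNA in both.

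Set against each other, Ctbp2 siRNA and Ctbp1 siRNA differed at 3 genes with vehicle, beside 0.947% of all tested genes, and at 9 with LPS, beside 6.79%. With vehicle Ctss and Atp6v0d1 were higher and Arl8a lower in Ctbp2 siRNA cells. With LPS Ctsc, at 311, 329 and 343 TPM with Ctbp2 siRNA and 234, 242 and 245 TPM with Ctbp1 siRNA, differed by 0.45 ± 0.082 (limma adjusted p = 0.00671), with no overlap. Smpdl3a and Atp6v0d1 were also higher in Ctbp2 siRNA cells with LPS, and Arl8a, Atp6v0d2, Atp6v1b2, Atp6v1d, Gusb and Scarb2 were lower. Scarb2 read 32.6, 32.7 and 37 TPM with Ctbp2 siRNA and LPS, against 40.5, 41.3 and 41.6 TPM with Ctbp1 siRNA and LPS, and it was the 1 gene of these 6 still called lower after scaling. On that scale 5 genes were higher and 1 lower of 47 tested, beside 2.82% and 1.37% of all tested genes. Atp6v0d2 read 156, 150 and 161 TPM with Ctbp2 siRNA and LPS, against 202, 171 and 199 TPM with Ctbp1 siRNA and LPS (log2 fold change -0.28, limma adjusted p = 0.0261). Atp6v1d, the gene of the central V1 shaft, read 68.4, 70.7 and 72.9 TPM with Ctbp2 siRNA and LPS, against 83.2, 85.5 and 80.5 TPM with Ctbp1 siRNA and LPS (-0.23, limma adjusted p = 0.0138). None of these groups overlapped, nor did those of Gusb, the beta-glucuronidase gene, which read 351, 407 and 375 TPM with Ctbp2 siRNA and LPS, against 415, 465 and 422 TPM with Ctbp1 siRNA and LPS (-0.20, limma adjusted p = 0.0349). Separation again went beyond the calls. It held for 4 genes higher and 20 lower of 48 with LPS, and for 5 higher and 12 lower with vehicle. The share of all tested genes so separated is not given, so these counts only describe the values. The median log2 fold change with LPS was -0.07 over the 48 genes and -0.07 over all tested genes. With vehicle these medians were -0.02 and -0.03. The control LPS library numbered 4 is in neither group but enters the shared estimate of spread, and without it 4 genes were called higher and 12 lower with LPS. Without the Ctbp2 siRNA LPS library numbered 1 there were 2 higher and 1 lower, without the Ctbp1 siRNA LPS library numbered 3 there were 1 higher and 3 lower, and without that numbered 4 there were 2 higher and 2 lower. The call of Atp6v0d1 was lost in 14 of 18 such cases with LPS and in 5 of 18 with vehicle, and that of Ctss in 6 of 18 with vehicle. Those of Arl8a in both treatments and of Ctsc with LPS held in all 18. These comparisons share libraries with those against control siRNA. More of the 48 genes were called in both treatments when replicate numbers entered the fit as a block. The share of all tested genes called is not given for that fit or for the fits with a library left out. Those counts thus show nothing particular to the 48 genes.

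Whether knockdown altered the response to LPS was tested as an interaction. No gene of the 48 passed for Ctbp1 siRNA, beside 0.0126% of all tested genes, nor for Ctbp2 siRNA, beside 0.101% (limma). At an unadjusted p under 0.05 there were 2 of 48 genes for Ctbp1 siRNA and 4 of 48 for Ctbp2 siRNA. The share of all tested genes at that level is not given here, so these counts are not read as a result. The largest estimate was that of Ctsc with Ctbp2 siRNA, 0.45 ± 0.12 on the log2 scale (limma adjusted p = 0.192). The estimates ranged from -0.22 to 0.22 for Ctbp1 siRNA and from -0.19 to 0.45 for Ctbp2 siRNA.

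In J774.1 cells with LPS the double knockout was accompanied by higher levels of most of these genes. Of 42 genes that averaged 10 TPM or more, 29 were higher and 1 lower in double-knockout than in wildtype cells, beside 25.4% and 16.6% of 7782 tested genes (limma, adjusted p under 0.05). The median log2 fold change was 0.21, and 0.03 over all tested genes. The 6 genes under that level, Atp6v0d2, Ctsh, Ctsk, Gla, Smpdl3a and Tfeb, were not tested. Mitf and Scarb2, both called higher, averaged 5.87 and 8.52 TPM in wildtype cells and passed that level only through the double-knockout libraries. The minimum thus favoured a rise for both. The groups did not overlap for 32 genes that were higher and 1 that was lower, beside 32.0% and 21.9% of all tested genes. After scaling 24 genes were higher and 3 lower, beside 19.2% and 25.9% of all tested genes. The authors' deposited table, which had an adjusted p for 47 of the 48 genes, had 28 higher and 3 lower, beside 16.6% and 17.2% of all genes. The 48 genes held 0.663 ± 0.0131% of all TPM in double-knockout cells and 0.538 ± 0.0033% in wildtype cells (SD, n = 3 each), with no overlap. Markers moved with this comparison too: the macrophage gene Adgre1 averaged 15.8 ± 1.39 TPM in double-knockout and 225 ± 5.24 TPM in wildtype cells, and Cd14 averaged 932 ± 74.9 TPM in double-knockout and 1684 ± 22.8 TPM in wildtype cells, while Fcgr1 averaged 79.8 ± 4.05 TPM in double-knockout and 25.4 ± 3.37 TPM in wildtype cells (SD, n = 3 each). The whole list of 9 macrophage markers summed to 2915 to 3190 TPM in double-knockout and 3468 to 3515 TPM in wildtype cells, and that of 10 osteoclast markers, most of it Car2, to 473 to 490 TPM in double-knockout and 846 to 867 TPM in wildtype cells. The 8 macrophage markers outside the 48 genes summed to 2321 to 2562 TPM in double-knockout and 2953 to 3012 TPM in wildtype cells. The part of these in the result was not tested.

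**Figure D5:**
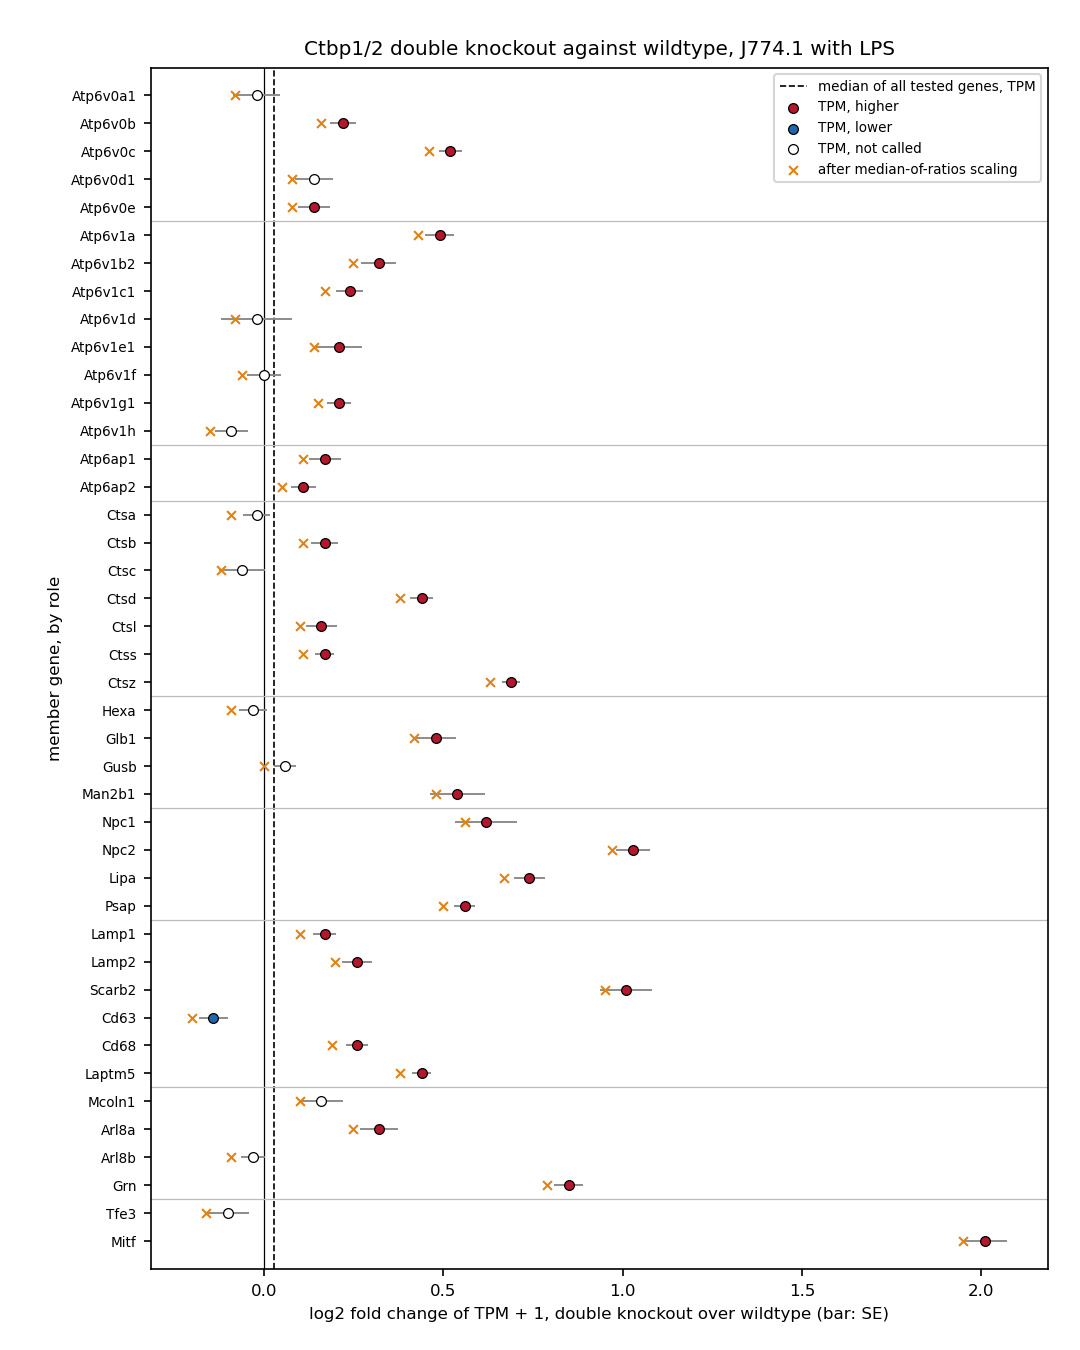
Points give the log2 fold change of TPM + 1, double-knockout over wildtype J774.1 cells with LPS, for the 42 genes tested, by role, with bars of 1 SE; filled points passed the limma test and crosses give the value after median-of-ratios scaling. Most points lie right of 0, Mitf is farthest at 2.01, and Cd63 at -0.14 is the 1 gene called lower in TPM.

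Mitf had the largest difference of the 42, but it passed the minimum of 10 TPM only through the double-knockout libraries. It read 26.4, 26.5 and 27.2 TPM in double-knockout cells and 5.73, 6.18 and 5.7 TPM in wildtype cells, so that the groups were far apart (log2 fold change 2.01 ± 0.061, limma adjusted p = 6.09e-08; 1.95 after scaling). Tfe3 read 55.1, 64.8 and 59.7 TPM in double-knockout cells and 64.8, 64 and 63.2 TPM in wildtype cells. Its groups overlapped, and its change of -0.10 was not called in TPM (limma adjusted p = 0.213) but was -0.16 and called after scaling (adjusted p = 0.0419). Tfeb was under the minimum of 10 TPM set here, at 1.95, 2.21 and 1.76 TPM in double-knockout cells and 1.17, 1.11 and 0.999 TPM in wildtype cells, with no overlap. In the authors' deposited table it was called higher (log2 fold change 0.71, adjusted p = 0.0383).

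The lipid-handling genes rose together: all 4 tested were called higher on both scales. Npc2 read 91.6, 96.6 and 97.8 TPM in double-knockout cells and 46.1, 44.1 and 48.3 TPM in wildtype cells (log2 fold change 1.03 ± 0.047, limma adjusted p = 6.08e-07). The groups did not overlap, nor did those of its partner Npc1, which read 18.9, 21.6 and 21.9 TPM in double-knockout cells and 13.5, 11.8 and 14.3 TPM in wildtype cells (0.62 ± 0.087, limma adjusted p = 0.0006). Lipa rose by 0.74 ± 0.043 and Psap by 0.56 ± 0.03. Smpdl3a, the fifth of them, was under the minimum in both groups.

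Among the membrane proteins 5 of 6 genes were higher on both scales and Cd63 was lower on both. Scarb2 read 17.4, 19.1 and 17.9 TPM in double-knockout cells and 8.78, 8.93 and 7.85 TPM in wildtype cells, with no overlap (log2 fold change 1.01 ± 0.072, limma adjusted p = 9.64e-06). Its mean passed the minimum only through the double-knockout libraries. Cd63, a tetraspanin gene, read 43.9, 43.6 and 42 TPM in double-knockout cells and 47.7, 47.2 and 48.2 TPM in wildtype cells. Its groups did not overlap either, but the change of -0.14 ± 0.041 (limma adjusted p = 0.0225) lost its call without the double-knockout library numbered 3 or without any 1 of the 3 wildtype libraries, with a highest adjusted p of 0.0789. Grn read 113, 115 and 108 TPM in double-knockout cells and 60.9, 63.2 and 60.4 TPM in wildtype cells (log2 fold change 0.85 ± 0.04, limma adjusted p = 6.83e-07), a clear separation. Arl8a read 38.4, 41.8 and 41.9 TPM in double-knockout cells and 31.9, 33.7 and 31.9 TPM in wildtype cells, higher in every library (0.32, limma adjusted p = 0.00158), while Arl8b changed by -0.03 with no call. Arl8a was thus higher here and lower with Ctbp2 siRNA in BMDMs, and no test was made between the 2 tables.

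Cathepsin and glycosidase genes gave a mixed picture. Ctsz read 730, 742 and 728 TPM in double-knockout cells and 458, 445 and 461 TPM in wildtype cells (log2 fold change 0.69 ± 0.025, limma adjusted p = 1.89e-07), and Ctsb, Ctsd and Ctss were also higher on both scales. Ctsa and Ctsc were not called, at -0.02 and -0.06, and Ctsl, called higher in TPM, was not called after scaling. Ctsc read 32.7, 32.2 and 28.9 TPM in double-knockout cells and 30.8, 34.2 and 32.7 TPM in wildtype cells, which overlapped. Of the glycosidase genes Glb1 and Man2b1, which encode beta-galactosidase and lysosomal alpha-mannosidase, were higher on both scales by 0.48 and 0.54 in TPM, and Hexa at -0.03 and Gusb were not called.

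Of the pump genes 3 of 5 tested in V0 and 5 of 8 in V1 were higher in TPM, and 2 and 4 after scaling. Atp6v0c, which encodes the proton-binding c subunit of the V0 ring, read 419, 448 and 422 TPM in double-knockout cells and 301, 298 and 298 TPM in wildtype cells, with no overlap (log2 fold change 0.52 ± 0.032, limma adjusted p = 3.55e-06). In this table a processed copy, Atp6v0c-ps2, was listed at a mean of 342 TPM, against 0.95 TPM in the BMDM table, so reads of the gene and its copy may be divided differently in the 2 tables and the level of Atp6v0c in J774.1 is uncertain. Summed with its copies the gene differed by 0.51. Atp6v1a rose by 0.49. Atp6v1h, the gene of a subunit that couples V1 to V0, read 97.5, 108 and 107 TPM in double-knockout cells and 113, 111 and 107 TPM in wildtype cells. That change of -0.09 was not called in TPM (limma adjusted p = 0.162), and after scaling it was -0.15 and called. Atp6v0d1, the gene lower with Ctbp1 siRNA in BMDMs, read 46.2, 50.8 and 48.4 TPM in double-knockout cells and 44.9, 41.7 and 45.4 TPM in wildtype cells and was not called. Atp6v0d2 was listed at 0.0625, 0.0332 and 0 TPM in double-knockout cells and at 0 in all 3 wildtype libraries, so this line does not show the d2 RNA that BMDMs hold at 150 TPM or more.

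Genes of the same pathways outside the 48 were read in the same fits, where 53.1% of all tested genes were lower and 23.3% higher with LPS in control BMDMs, or 27.2% and 45.3% after scaling. Of 4 further V-ATPase genes 2 were lower and none higher with LPS in control BMDMs (2 lower and 1 higher after scaling), and 3 of 4 were higher and none lower in double-knockout J774.1 cells (2 and none after scaling). In control BMDMs with LPS, 30 of 34 further hydrolase genes were lower and 2 higher in TPM, and 23 lower and 6 higher of 35 after scaling. Sgsh, a heparan sulfate sulfatase gene, fell by 2.49 ± 0.11 on the log2 scale. Of 32 further membrane proteins and transporters 24 were lower and 7 higher (18 and 8 of 31 after scaling), led by Slc46a3 at -3.04 ± 0.14. Regulators of mTORC1 and TFEB gave 13 lower and 2 higher of 20 (8 and 7 after scaling). Among these Tfec, the fourth MiT/TFE gene, was higher by 3.04 ± 0.096, while Flcn and Fnip2, whose products form a complex that acts on TFEB and TFE3, fell by 1.08 and 2.33. Of 21 autophagy genes 15 were lower and 3 higher (10 and 8 after scaling), and the receptor gene Sqstm1 was higher by 2.68 ± 0.043. Sorting and positioning genes gave 20 lower and 1 higher of 28 (11 and 9 after scaling).

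In double-knockout J774.1 cells, where 25.4% of all tested genes were higher and 16.6% lower, or 19.2% and 25.9% after scaling, 11 of 22 further hydrolase genes were higher and 2 lower (7 and 2 after scaling). Of 19 membrane proteins and transporters 9 were higher and 1 lower (8 and 2 after scaling). Mfsd12, a gene for cysteine import into lysosomes and melanosomes, was higher by 1.39 ± 0.086 (limma adjusted p = 3.55e-06), and Slc11a1, the phagosomal metal transporter gene, by 1.05. Sorting and positioning genes gave 14 higher and none lower of 24, and 10 higher and none lower after scaling. The mTORC1 and TFEB regulators gave 4 higher and 2 lower of 18, near the background, and 3 higher and 4 lower after scaling, with Flcn at -0.43 in TPM. Autophagy genes gave 4 higher and 2 lower of 16, again near the background, and 1 higher and 3 lower after scaling, so neither list has a direction that held on both scales.

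Some of the values rest on genes whose exons overlap in the GENCODE annotation of GRCm38. The libraries were not strand-specific, and exons of Ctsa and of Pltp on the opposite strand share 495 bases. Pltp was at 473.6 to 599.9 TPM with LPS and 713.2 to 867.8 TPM with vehicle in control BMDMs, lower with LPS like Ctsa, and reads in the shared stretch cannot be told apart. Exons of Ctsd overlap those of Gm49369 on the same strand over 670 bases. Summed with Gm49369, Ctsd differed between double-knockout and wildtype cells by 0.44, as it did alone.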

How the data were processed

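RNA was sequenced from 18 BMDM and 6 J774.1 libraries with a polyA, unstranded kit, per the labels' protocols. The values in both tables are TPM, deposited by the authors at gene level; per the file headers the BMDM values are scaled TPM on mm39, and the submitters' processing notes name Salmon 1.9.0, DESeq2 1.44.0 and R 4.4.1. The authors' deposited comparison tables give a log2 fold change, a mean normalized count signal, a p-value and an adjusted p-value. TPM keeps no depth, so no counting interval can be given. Of the J774.1 gene identifiers, 190 stood on more than 1 line, and the first line of each was used. No per-sample column of the tables was left unmapped.

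From TPM, log2(TPM + 1) was tested with limma 3.58.1 (R 4.3.3; trend and robust settings, two-sided) over genes that averaged 10 TPM or more, 7918 in the BMDM table and 7782 in the J774.1 table, in 1 fit per table, with Benjamini-Hochberg adjustment over all of them and a threshold of 0.05. Fold changes on this scale understate the change of low genes. Error terms are SD over 3 libraries or SE from the fit. The 48 genes, the pathway lists and the cell markers were chosen with earlier results of these data known. Values by library were given for genes called in an siRNA comparison, for the ends of each LPS and knockout comparison, for the paired isoforms and the MiT/TFE genes; a few others (Npc1, Npc2, Gla, Lipa, Grn, Ctsz, Psap, Atp6v0c) were named after their values were seen. Alternatives were another pseudocount, other minimum levels, median-of-ratios scaling, other sets of groups in the fit, a replicate block and leaving out each library. Replicate numbers are 1, 3 and 4 in the titles of the BMDM libraries. They were used as names and not as a block, although same-numbered libraries resembled each other. The check of pairing is given with the alternatives. The fit was tested on simulated data with known changes. Promoters are from RefSeq, build GRCm38.p6, used for sequence only. Figures were drawn with matplotlib 3.10.9 in Python 3.11.15.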

Additional observations from a re-analysis of the deposited data

How the results depend on the processing

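Under the alternatives tried, 43 differences of single lysosomal genes kept direction and call in 787 of 945 recomputations, lost the call in 152, gained one in 4 and turned in 2. Both that turned did so under median-of-ratios scaling in control BMDMs with LPS: Atp6v0d1 to 0.09 (limma adjusted p = 0.0389) and Tfe3 to 0.13 (0.0921). Counts of siRNA calls were the least stable, and the cause was not tested. For Ctbp1 siRNA the single call became 0 with a minimum of 1 TPM, with no minimum and with only the compared groups in the fit, in both treatments, and with scaling in vehicle. For Ctbp2 siRNA with vehicle 3 calls became 1 with no minimum, and with LPS 5 became 2 with no minimum and 0 with only the compared groups. For Ctbp2 against Ctbp1 siRNA with vehicle 3 calls became 1 with no minimum, 1 with only the compared groups and 6 with a replicate block, and with LPS 9 became 5, 2 and 15. Same-numbered libraries of different groups had deviations that correlated above 0.1 in 21 of 45 BMDM pairs (median 0.0899), against 4 of 90 differently numbered pairs (median -0.0295), and 17 of 18 libraries correlated best with one of their own number. In J774.1 it was 1 of 3 same-numbered pairs. BMDM libraries of the same number thus resembled each other more than differently numbered ones did. The labels name no shared animal or day, and the fit without the block was kept because not every pair passed 0.1. The BMDM p-values of that fit ignore this resemblance and leave it in the spread between libraries. The block changed the LPS counts to 45 or 46, the knockout count to 27 and the interaction counts not from 0. Leaving out 1 library gave 41 to 45 calls for LPS in control, 44 to 46 in Ctbp1 siRNA and 42 to 46 in Ctbp2 siRNA cells. It gave 0 to 1 for Ctbp1 siRNA with vehicle, 0 to 4 with LPS, 1 to 3 for Ctbp2 siRNA with vehicle and 2 to 6 with LPS. For Ctbp2 against Ctbp1 siRNA it gave 1 to 5 with vehicle and 3 to 16 with LPS, for both interactions 0 to 0, and for the knockout 24 to 29. Where 1 library was left out of a group of 3, the remaining pair was assumed to vary like the other groups. All counts with 1 library left out are given without the share of all tested genes called in the same refit. The unknown depth limits what can be said of genes at a few TPM, such as Tfeb in J774.1.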

Other observations

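Members of the list under the minimum of 10 TPM in J774.1 were read as values only. Ctsh, an aminopeptidase gene, was at 2.01, 2.38 and 1.47 TPM in double-knockout cells and 0.183, 0.12 and 0.477 TPM in wildtype cells. Gla was at 2.81, 2.96 and 2.84 TPM in double-knockout cells and 2.73, 1.94 and 1.77 TPM in wildtype cells. The groups of both did not overlap. They were not tested here, and the authors' deposited table calls both higher, Ctsh with a log2 fold change of 3.73 (adjusted p = 9.49e-07) and Gla with 0.55 (adjusted p = 0.0162). In BMDMs the same Ctsh and Gla RNAs were tested, since both passed the minimum there.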
